A study of Homo sapiens with 3 samples.

Results

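The nuclear genes of the respiratory chain and ATP synthase were examined in Hep-G2, an established human hepatoma line that keeps many hepatocyte traits, after knockdown of FTO. FTO is a demethylase that removes the N6-methyladenosine mark (m6A) from RNA. Members were rows of the expression table whose symbols began with NDUF, UQCR, COX4 to COX8 or ATP5, or were SDHA, SDHB, SDHC or SDHD. The rule took 95 of the 21572 genes in the table, and 85 of the 95 averaged 1 FPKM or more across the libraries, the minimum set for a comparison, as did 11069 genes in all. FPKM divides a gene's fragments by its transcript length and by the mapped total. Levels can thus be set beside each other between genes only as far as the lengths used are right. The table names no unit, and FPKM was inferred from the values and from the tool named by the submitters. Of the 95 members, 82 encode subunits of complexes I to V. The other members are assembly factors, copies and read-through loci, and genes counted as neither subunits nor assembly factors, such as COX4NB.

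Each of 3 groups held 1 library from cells at passage 21. The control cells carried the scramble hairpin SHC002, the cells called sh#2 carried the FTO hairpin TRCN0000255402, and the cells called sh#7 carried the FTO hairpin TRCN0000246247. The series describes FTO as knocked down less in sh#2 than in sh#7. All cells grew in the same medium with serum, and the sources used here do not say whether a line was a clone or a pool. With 1 library a group there is no replicate check and no test, and an effect of FTO cannot be told apart from an effect of a hairpin, a line or a culture. Both knockdown lines are set against the same control library, so their differences from it are not independent.

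Cells make most of their ATP by oxidative phosphorylation in the inner mitochondrial membrane. Complex I takes electrons from NADH and complex II takes them from succinate, and both pass them to ubiquinone. Complex III hands them on to cytochrome c and complex IV to oxygen, and complex V, the ATP synthase, makes ATP with the proton gradient built on the way. Complex II is encoded wholly in the nucleus, while the other complexes also hold subunits encoded in mitochondrial DNA, which were not analysed here.

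FTO itself was at 9.02 (control), 5.29 (sh#2) and 2.55 FPKM (sh#7), so the order of the libraries followed their labels. Estimated depth was alike, between 46.25 and 47.25 M (mega) fragments a library. Where 3 levels are given without names, the order is control, sh#2, sh#7. The 9 hepatocyte markers summed to 11018 (control), 10232 (sh#2) and 4318 FPKM (sh#7), and the 4 endothelial markers to 0.196 FPKM or less. The 7 fibroblast markers summed to 43.9, 35.4 and 52.7 FPKM, nearly all of it ACTA2, and 4 of them were listed at 0 in every library. The 6 blood markers summed to 41.6, 32.4 and 24.7 FPKM, nearly all of it CD68, and 3 of them were listed at 0, among them the leukocyte gene PTPRC. ACTA2 was at 40.2, 33.6 and 51.5 FPKM and CD68 at 39.3, 30.8 and 23.3 FPKM. In sh#7 the hepatocyte and blood sums were thus lower and the fibroblast sum higher than in the control, and their part in the results below was not tested.

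By their summed level and by 2-fold counts, these genes stayed close to the control in both lines. The members summed to 13625 (control), 14437 (sh#2) and 13221 FPKM (sh#7), or 2.41%, 2.60% and 2.49% of all FPKM. In sh#7, 0 of 85 members were at least 2-fold above the control on the log2(FPKM + 1) scale, against 2.35% of all genes, and 1 member was at least 2-fold below it, against 2.48% of all genes. In sh#2, 0 of 85 members passed 2-fold in either direction, against 0.506% of all genes higher and 0.723% lower. Between the lines, 0 members were 2-fold higher in sh#7, against 1.45% of all genes, and 1 was 2-fold lower, against 1.52%. Among 85 members, counts of 0 or 1 are near these shares, so they show nothing particular to the members. Smaller differences beyond counting error were present in both lines and are given below.

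The scatter among members was narrower than among all genes. In sh#7 against the control, the standard deviation over genes of the log2 difference was 0.23 among members and 0.51 among all genes. In sh#2 it was 0.17 and 0.32, and between the lines 0.21 and 0.43. Among genes averaging 100 FPKM or more, the level of many members, the values in sh#7 were 0.16 over 42 members and 0.66 over 945 genes. Within 1.25-fold of the median of all genes lay 68 of 85 members in sh#7, where 64.6% of all genes did. The same held for 79 members in sh#2 against 80.6% of all genes, and for 69 members between the lines against 73.2%.

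**Figure D1:**
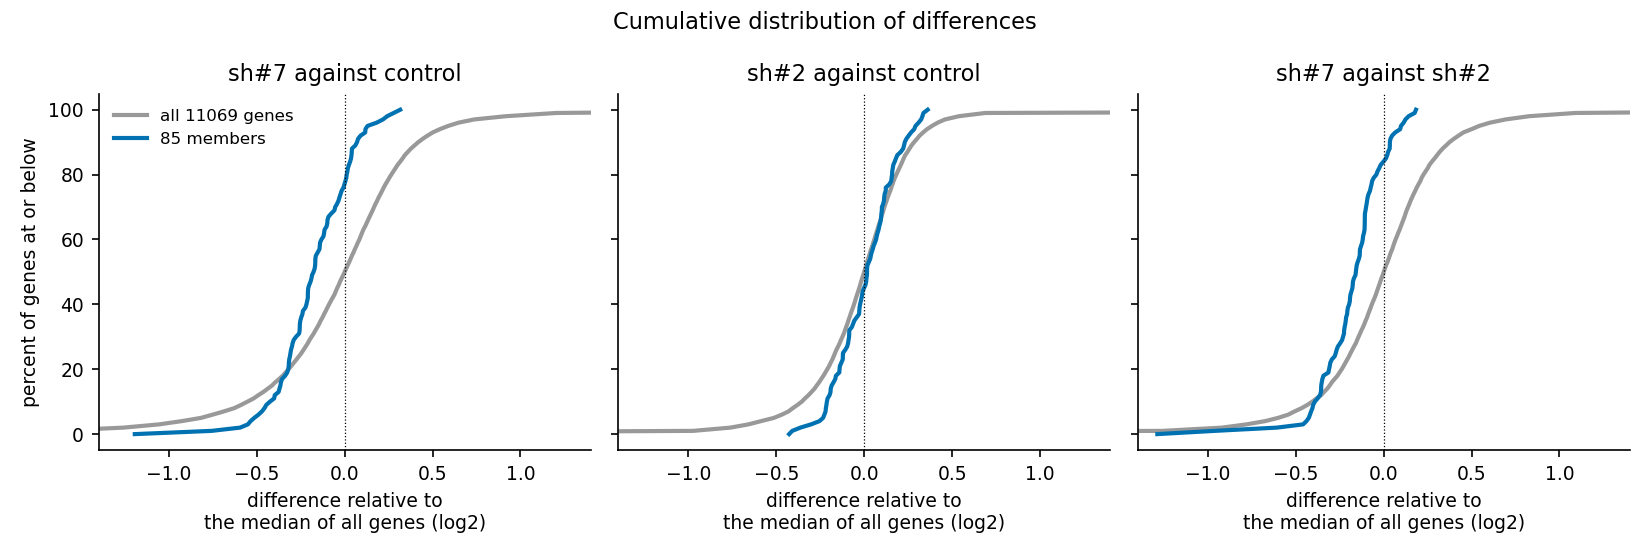
Cumulative share of genes (vertical axis, percent) by log2(FPKM + 1) difference less the all-gene median (horizontal axis), for 85 members (blue) and 11069 genes (grey) in the 3 comparisons. The member curves are steeper than the grey curves, and they lie to the left of 0 at their midpoint in sh#7 against control and in sh#7 against sh#2.

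A small offset was present in sh#7. The median difference from the control was -0.02 for members and 0.16 for all genes in sh#7, so the members lay 0.18 below the median of all genes on the log2 scale, and 65 of 85 were under it. In sh#2 the medians were 0.12 and 0.10, a relative value of 0.02, with 38 of 85 members under the median of all genes. Between the lines the relative value was -0.16, and 71 of 85 members were under the median. The offset depends on which genes it is measured against: the 945 genes at or above 100 FPKM had a median of -0.0017 in sh#7, and the 42 members of that level had -0.06. By raw sign, 47 members were lower and 38 higher in sh#7 as deposited, but 69 and 16 after median-of-ratios scaling and 60 and 25 after upper-quartile scaling. In sh#2, 23 members were lower and 62 higher as deposited, against 41 and 44, and 38 and 47, under those scalings. Median-of-ratios scaling moved the median of all genes in sh#7 from 0.16 to 0.005, so each list median is given less the all-gene median.

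The order of the 3 libraries did not follow FTO for most members. The sh#2 library held the highest of the 3 values in 51 of 85 members (60%), against 29.3% of all genes, and the sh#2 value lay between the others in 27 (31.8%), against 51.3% of all genes. The lines lay on opposite sides of the control in 30 members (35.3%), against 25.9% of all genes, and in 5 of these beyond counting error and 1.1-fold in both lines, against 3.16% of all genes. These shares are a description on the FPKM scale as deposited.

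The promoters of these genes held the letters of 3 factor motifs more often than promoters in general. RefSeq promoter windows on GRCh38.p14, 250 bases before to 50 after a start, were found for 63 compared subunit genes with 75 windows and compared with 35116 windows in all. The latter were not filtered by expression, and no other family of housekeeping genes was searched. Whether other expressed genes hold these letters as often was therefore not tested. NRF1, ETS factors such as GABPA, and YY1 are textbook regulators of this gene family. The NRF1 letters GCATGCGC (reverse GCGCATGC) were in 15 of 75 member windows (20%) and in 3.05% of all windows. The ETS letters CCGGAAGT (reverse ACTTCCGG) were in 11 (14.7%) against 4.14%, and the YY1 letters AAGATGGC (reverse GCCATCTT) in 13 (17.3%) against 2.89%. Both strands were searched, and the 2 strands of the NRF1 letters can overlap in 1 palindromic site. A CCAAT box (reverse ATTGG) was in 30.7% of member windows and 34.6% of all, and TATAAA (reverse TTTATA) in 8% and 11.5%. Median GC content was alike at 60% and 58.7%. A match of letters is a description, not a bound site.

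The 250 bases before the start are shown for 4 genes: a pair with the NRF1 letters, the subunit gene with the highest difference in sh#7, and the single gene past 2-fold. Capitals mark the NRF1 or ETS letters, and each run reads 5′ to 3′ on the gene's strand from RefSeq on GRCh38.p14. ATP5C1 (now ATP5F1C) lies on the plus strand at chr10:7787927-7788176, SDHB on the minus strand at chr1:17054033-17054282, UQCRQ on the plus strand at chr5:132866392-132866641, and ATP5L (now ATP5MG) on the plus strand at chr11:118401356-118401605. 
ATP5C1: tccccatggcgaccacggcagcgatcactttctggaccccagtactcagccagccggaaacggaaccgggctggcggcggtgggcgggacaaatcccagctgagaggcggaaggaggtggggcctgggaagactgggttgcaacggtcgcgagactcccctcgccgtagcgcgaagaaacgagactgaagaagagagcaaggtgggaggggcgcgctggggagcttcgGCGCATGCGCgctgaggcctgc
SDHB: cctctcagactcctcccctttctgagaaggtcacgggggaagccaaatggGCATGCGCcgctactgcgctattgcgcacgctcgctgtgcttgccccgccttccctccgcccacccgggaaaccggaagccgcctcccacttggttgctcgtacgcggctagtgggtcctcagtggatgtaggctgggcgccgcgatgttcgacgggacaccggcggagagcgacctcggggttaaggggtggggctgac
UQCRQ: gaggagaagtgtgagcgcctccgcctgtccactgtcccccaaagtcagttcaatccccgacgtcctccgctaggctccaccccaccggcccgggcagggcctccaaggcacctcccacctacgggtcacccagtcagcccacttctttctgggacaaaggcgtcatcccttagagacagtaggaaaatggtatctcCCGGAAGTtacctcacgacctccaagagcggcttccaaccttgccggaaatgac
ATP5L: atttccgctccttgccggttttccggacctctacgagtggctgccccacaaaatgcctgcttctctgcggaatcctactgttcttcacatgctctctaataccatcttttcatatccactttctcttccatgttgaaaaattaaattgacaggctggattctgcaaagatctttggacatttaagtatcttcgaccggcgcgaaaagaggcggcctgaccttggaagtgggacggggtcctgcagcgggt
In ATP5C1 the NRF1 letters match on both strands of 1 site that begins 22 bases before the start. In SDHB they begin 200 bases before it, and its 300-base window also holds the YY1 letters. In UQCRQ the ETS letters begin 54 bases before it. None of the 3 searched factor motifs is in the ATP5L window. In sh#7 the 14 subunit genes with the NRF1 letters had a relative median of -0.08 with a range from -0.36 to 0.13, and the 49 without them -0.20 with a range from -1.19 to 0.32, so the ranges overlapped. With and without the letters the relative medians were 0.10 and 0.02 in sh#2, and -0.15 and -0.17 between the lines. NRF1 itself was at 5.67 (control), 6.92 (sh#2) and 7.88 FPKM (sh#7). In the same order GABPA was at 3.80, 4.15 and 4.54 FPKM and YY1 at 57.1, 63.4 and 79.4 FPKM. A link of these levels to the members was not tested.

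Levels within a complex were uneven in every library. In the control the highest subunit gene by mean stood 15.6 times above the lowest in complex I (NDUFS6 over NDUFC1), 10.5 times in complex II (SDHA over SDHC) and 27.7 times in complex III (UQCRH over UQCRFS1). The ratio was 31.2 in complex IV (COX7C over NDUFA4) and 22.3 in complex V (ATP5I over ATP5F1). These ratios depend strongly on the transcript lengths used, which are not known here. In the control, COX7C had about 4617 estimated fragments on a shortest transcript of 347 nt, and NDUFA4 about 1941 on 2130 nt. In sh#7 the ratio in complex I was 26.9, with NDUFC1 at 68.7% and NDUFS6 at 118% of the control, and in the other complexes it was between 10.3 and 27.5. Counting error is small at these levels: the median member had about 1293 fragments in its lowest library. The counting interval (95%) lay above the control level in 20 of 85 members in sh#7 and below it in 31, where 41.7% and 18.5% of all 10722 genes with an interval did. In sh#2 it lay above in 46 and below in 10, where 32.6% and 14% of all genes did. Between the lines sh#7 lay above sh#2 in 6 and below it in 45, where 27.7% and 21.4% of all genes did. These intervals hold no difference between cultures.

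Complex I has 37 subunit genes among the members, and all were compared. Their median minus that of all genes was -0.14 in sh#7 and 0.02 in sh#2, and 29 and 16 of 37 were under it. The 7 core subunits, which carry the flavin and the iron-sulphur clusters, were all below the median of all genes in sh#7. Their relative median was -0.26 in sh#7 and -0.12 in sh#2, where 4 of 7 were below. Against the control itself, 5 of the 7 were lower and 2 higher in sh#7. The 30 accessory subunits had a relative median of -0.12 in sh#7, with 22 below, and of 0.02 in sh#2.

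NDUFV1, which holds the flavin that accepts electrons from NADH, was at 127 (control), 122 (sh#2) and 113 FPKM (sh#7). NDUFS1, the largest iron-sulphur subunit, was at 70.1, 69.2 and 60.7 FPKM. Both genes were highest in the control and lowest in sh#7. The counting interval (95%, exact, covering counting error only) of the sh#7 level was 79.6 to 94.1% of the control for NDUFS1 and 82.7 to 95.4% for NDUFV1.

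By the mean of both lines, the complex I subunits furthest above the control were NDUFB6 and NDUFB2, accessory subunits of the membrane arm. NDUFB6 was at 26.0 (control), 36.3 (sh#2) and 34.3 FPKM (sh#7), or 139.5% (125.2 to 156) and 132% (118 to 147) of the control. NDUFB2 was at 132, 177 and 159.6 FPKM. Both were above the control in both lines, well short of 2-fold. NDUFA3 and NDUFA11 were the lowest by the mean of both lines, at 106, 97.5 and 89.0 FPKM and at 113, 104 and 97.4 FPKM.

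NDUFC1, a small membrane subunit chosen after its values were seen, was the complex I gene with the largest gap between the lines. It was at 24.2 (control), 30.8 (sh#2) and 16.6 FPKM (sh#7), or 127% (112 to 144) and 68.7% (59.3 to 79.7) of the control. The lines lay on opposite sides of the control, and the log2 difference between them was -0.85. About 452, 579 and 306 fragments lay behind these values.

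The 4 complex I assembly factors with NDUFAF symbols were compared too. NDUFAF1, which helps build the membrane arm, was at 10.9, 13.3 and 13.4 FPKM by library. NDUFAF3 was at 34.6, 31.6 and 33.3 FPKM. Neither passed 2-fold. The read-through locus NDUFC2-KCTD14 was at 36.5, 29.4 and 28.1 FPKM, and how fragments were divided between it and NDUFC2 is uncertain.

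**Figure D2:**
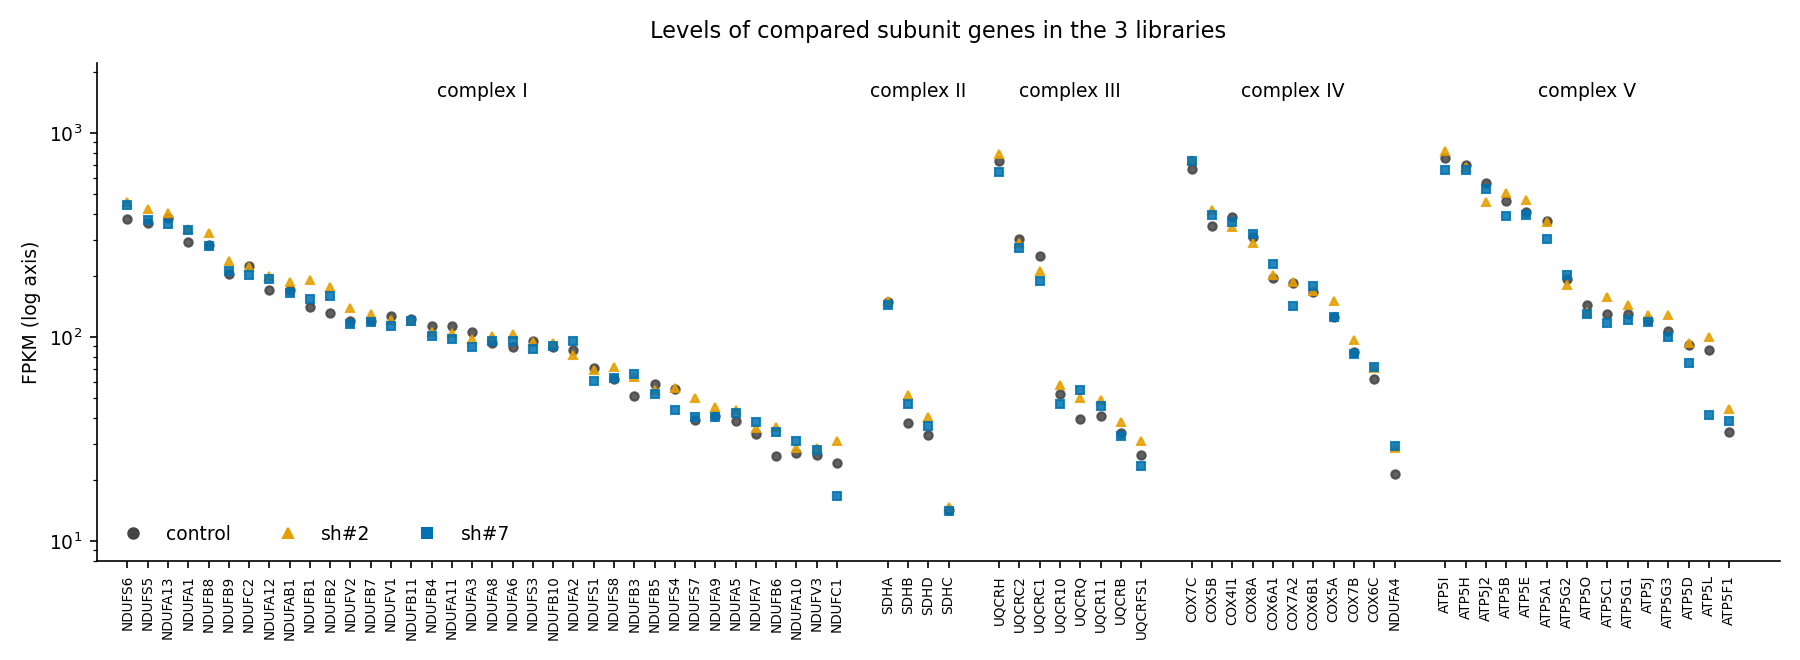
FPKM on a log axis for compared subunit genes, grouped by complex and ordered by mean level, with circles for the control, triangles for sh#2 and squares for sh#7. The 3 symbols of a gene nearly coincide for most genes; the square of ATP5L at 41.5 FPKM stands apart from its circle at 86.3 FPKM.

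Complex II, which is succinate dehydrogenase and also a citric acid cycle enzyme, has 4 genes. SDHA, the flavoprotein that oxidises succinate, was at 149 (control), 150.4 (sh#2) and 144 FPKM (sh#7). SDHB, the iron-sulphur subunit, was at 38.1, 51.9 and 46.8 FPKM, or 136% (124 to 149) of the control in sh#2 and 123% (112 to 135) in sh#7. SDHA was therefore level within its counting interval in both lines while SDHB was above its own. The membrane anchors SDHC and SDHD were at 14.2, 14.6 and 13.96 FPKM and at 33.2, 40.6 and 36.7 FPKM. The interval of SDHC in sh#7, 75.3 to 130% of the control, is wide because about 112 fragments lay behind its control value. The relative median of the complex was -0.10 in sh#7 and 0.06 in sh#2. The ratio of SDHA to SDHC was 10.5, 10.3 and 10.3, and that of SDHA to SDHB was 3.92, 2.90 and 3.08.

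Complex III, the cytochrome bc1 complex, has 8 nuclear genes among the members. UQCRC1, a core protein, was the lowest of these by the mean of both lines, at 249.9 (control), 212 (sh#2) and 189 FPKM (sh#7). It stood at 84.7% (83.0 to 86.4) and 75.6% (74.1 to 77.2) of the control. The other core protein gene, UQCRC2, was at 302, 289 and 272 FPKM. Both were highest in the control and lowest in sh#7, short of 2-fold.

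UQCRQ, a small subunit next to the ubiquinone site, had the opposite order. It was at 39.5 (control), 49.9 (sh#2) and 55.2 FPKM (sh#7), or 126.5% (111 to 144) and 139.8% (123 to 159) of the control. Its log2 difference of 0.47 was the highest of any member in sh#7. UQCR11 was at 40.8, 49.0 and 46.0 FPKM. UQCRFS1, the Rieske iron-sulphur protein that carries out the electron transfer, was at 26.3, 30.7 and 23.4 FPKM, above the control in sh#2 and below it in sh#7. UQCRH was at 729, 792 and 642 FPKM and its near-identical copy UQCRHL at 25.9, 23.5 and 20.7 FPKM, and how fragments were divided between them is uncertain. Over the 8 subunits the relative median was -0.31 in sh#7, with 6 under the median of all genes, and 0.06 in sh#2.

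**Figure D3:**
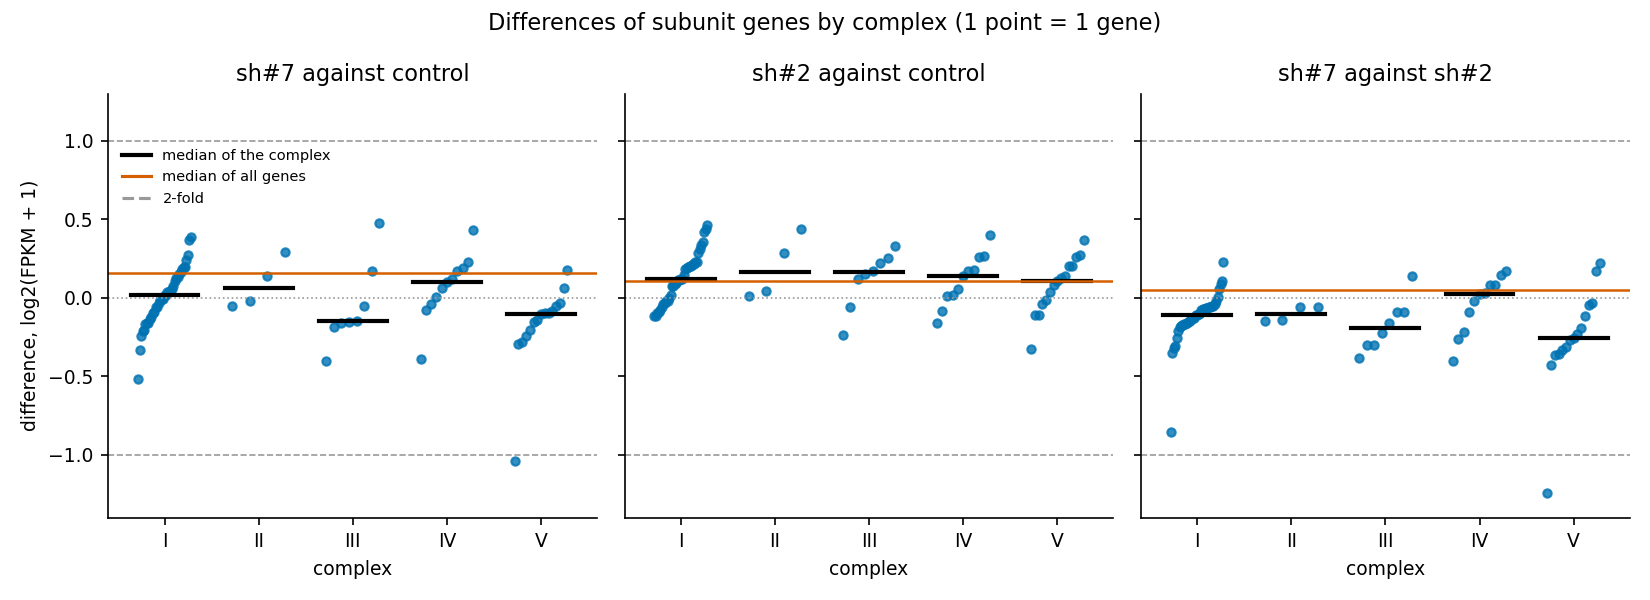
Log2(FPKM + 1) difference (vertical axis) of each compared subunit gene by complex, in 3 comparisons, with the complex median (black bar), the median of all genes (orange line) and 2-fold (dashed). All points lie within the dashed lines except ATP5L in sh#7, at -1.04 against the control and -1.24 against sh#2.

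Complex IV, cytochrome c oxidase, was counted with NDUFA4, which is now known to be a subunit of it in spite of its name. Of its 18 subunit and isoform genes 11 were compared. Several of these subunits come as a common gene and a partner restricted to muscle, lung, testis or low oxygen, and the pairs were clear in Hep-G2. COX4I1 was at 389 (control), 347 (sh#2) and 368 FPKM (sh#7), while its low-oxygen partner COX4I2 was at 0.581, 0.569 and 0.405 FPKM. NDUFA4 was at 21.4, 28.5 and 29.2 FPKM and NDUFA4L2, known for its induction in hypoxia, at 0.196, 0.171 and 0.218 FPKM. The common form was thus far above its partner in every library, and neither partner reached 1 FPKM in any of them.

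COX6A1 was at 195, 202 and 228 FPKM and its muscle partner COX6A2 was listed at 0 in all 3 libraries. COX7A2 was at 185, 187 and 141 FPKM, with COX7A1 listed at 0 in the control and sh#2 and at 0.0383 FPKM in sh#7. COX8A was at 308, 289.6 and 321 FPKM with COX8C listed at 0. COX7B was at 84.9, 96.2 and 82.5 FPKM with COX7B2 listed at 0. COX6B1 was at 165, 167 and 177 FPKM and the testis form COX6B2 at 0.0148, 0.0569 and 0.0590 FPKM. No fold is given for these partners, since all were under the mean of 1 FPKM.

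Among the common subunits, NDUFA4 was the highest relative to the control in both lines, at 133% (126 to 141) in sh#2 and 136% (128 to 145) in sh#7. COX5B was at 350.9, 421 and 396 FPKM, and COX5A, its neighbour in the assembly, at 124.8, 150.4 and 125.1 FPKM, so the counting interval of COX5A lay above the control in sh#2 and held it in sh#7, at 93.0 to 108%. COX7A2 was 76.4% (69.7 to 83.7) of the control in sh#7 and 100.9% (92.7 to 110) in sh#2. COX7A2L, a factor that joins complexes III and IV into supercomplexes, was at 185, 187 and 184 FPKM. The relative median of the complex was -0.06 in sh#7 and 0.04 in sh#2, both of which changed sign under an alternative.

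Complex V lay mostly under the median of all genes in sh#7, with a wide spread from -1.04 to 0.18 in log2 difference from the control. Of its 15 subunit genes among the members, 14 were under the median of all genes there, with a relative median of -0.26. In sh#2 it was 7 of 15, with a relative median of 0.00067. The ATP synthase genes USMG5 and C14orf2 lie outside the symbol rule and were not counted here. The catalytic F1 part (5 genes) had -0.40 in sh#7 and 0.02 in sh#2. The 3 genes of the c ring, the rotor in the membrane, had -0.25 and 0.03, and the 7 genes of the stalk and membrane part had -0.26 and -0.02. The pooled cytosolic ribosomal protein genes were at -0.34 in sh#7, below complex V as a whole and above its F1 part. No test of complex V against them was possible.

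ATP5A1 and ATP5B encode the alpha and beta subunits that form the catalytic ring. ATP5A1 was at 369 (control), 365 (sh#2) and 303 FPKM (sh#7), and ATP5B at 466, 508 and 394 FPKM. In sh#7 they stood at 82.1% (79.1 to 85.3) and 84.5% (80.8 to 88.3) of the control, while ATP5A1 in sh#2 was level with the control and ATP5B was at 109% (105 to 113.5). The ratio of ATP5A1 to ATP5B was 0.791, 0.718 and 0.769.

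ATP5L, which encodes subunit g at the base of the membrane part, was the single member past 2-fold. It was at 86.3 (control), 99.6 (sh#2) and 41.5 FPKM (sh#7). The sh#7 value was thus less than either of the others, and sh#2 was the highest of the 3. Against the control it was 48.1% (41.3 to 55.8) in sh#7 and 115% (103 to 129) in sh#2, and the log2 differences were -1.04 and 0.20. Corrected for transcript length and GC content, the sh#7 difference was -0.94, short of 2-fold. About 552 fragments lay behind the control value. ATP5L has a copy, ATP5L2, at 0.0721 FPKM or less, or about 2 fragments at most in a library. How fragments were divided between them is uncertain.

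Other subunits of the membrane part and stalk were short of 2-fold. ATP5I, subunit e, named after its values were seen, was at 757, 814 and 657 FPKM, and ATP5J2, subunit f, at 572, 457 and 533 FPKM. ATP5F1, subunit b of the stalk, was at 34.0, 44.2 and 38.6 FPKM, and ATP5G3, 1 of 3 genes for the same c subunit, at 107, 128 and 99.7 FPKM. The ratio of ATP5L to ATP5I was 0.114, 0.122 and 0.0633. ATP5J2 was the lowest member in sh#2, at 79.9% (75.5 to 84.6) of the control.

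**Figure D4:**
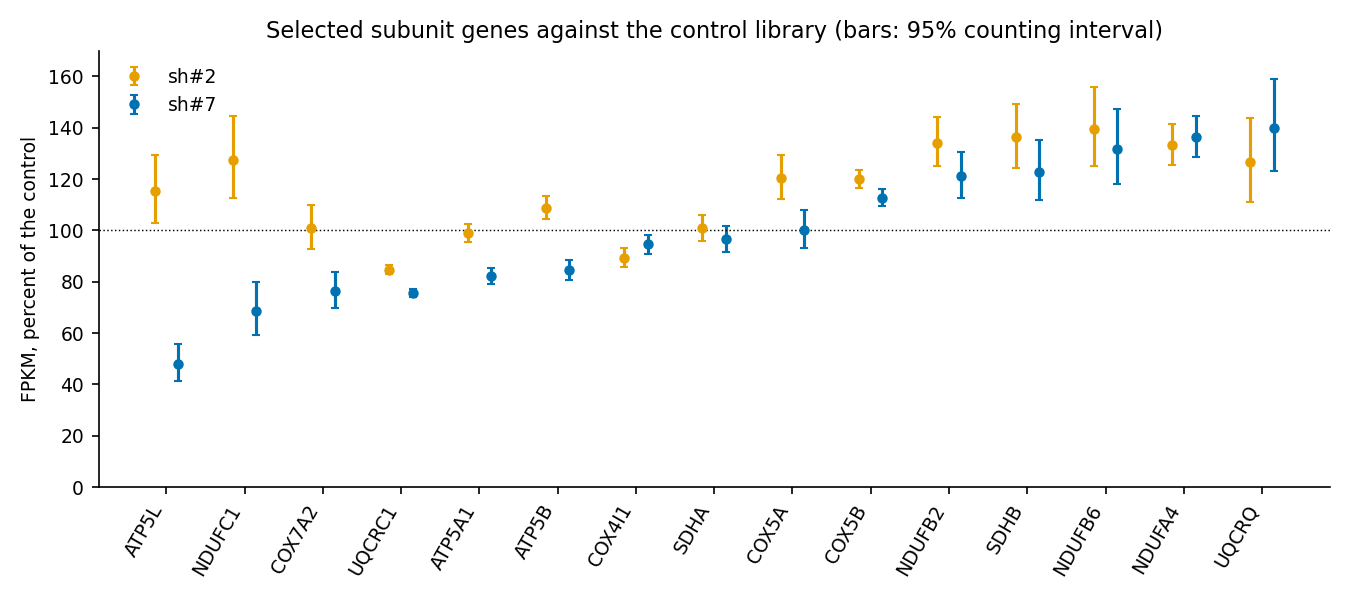
FPKM as a percent of the control (vertical axis) for 15 subunit genes in sh#2 (orange) and sh#7 (blue), with bars for the 95% counting interval, which does not include differences between cultures. ATP5L in sh#7 is at 48.1%, and the other values lie between 68.7% and 139.8%.

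None of the genes in 3 lists around the complexes passed 2-fold. Of 36 assembly factors outside the symbol rule 0 passed 2-fold in either line, and their relative median was -0.09 in sh#7 and 0.04 in sh#2. Among 10 respiratory chain genes outside the symbol rule, both electron carriers and ATP synthase genes, the values were -0.25 and -0.04, with 0 past 2-fold. USMG5 was at 168, 202 and 206 FPKM and C14orf2 at 154, 167 and 161 FPKM. Their log2 differences from the control in sh#7 were 0.30 and 0.06, on either side of the median of all genes at 0.16. ETFB, a subunit of the electron-transferring flavoprotein of fatty acid oxidation, was at 1094, 764 and 792 FPKM. Cytochrome c1 (CYC1) was at 217, 219 and 183 FPKM and the ATP synthase inhibitor ATPIF1 at 177, 177 and 169 FPKM. The 11 coenzyme Q synthesis genes had -0.13 and -0.06, and 0 passed 2-fold.

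The citric acid cycle and pyruvate dehydrogenase list had a relative median of -0.24 in sh#7 and -0.05 in sh#2 over 23 genes, with 1 past 2-fold lower in sh#7 and 0 higher. That gene was PDK1, the kinase that shuts pyruvate dehydrogenase and a known hypoxia target, at 17.0 (control), 10.3 (sh#2) and 6.25 FPKM (sh#7). Its order over the libraries was that of FTO. Citrate synthase (CS) was at 78.0, 104 and 91.4 FPKM.

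Regulators of mitochondrial biogenesis were the list with the highest relative medians of those around the complexes, at 0.04 in sh#7 and 0.15 in sh#2 over 18 genes, and 0 passed 2-fold on the log2(FPKM + 1) scale. TFAM, which packages mitochondrial DNA, was at 63.2, 76.7 and 72.4 FPKM. PPARGC1A, the coactivator PGC-1alpha, was below the control in both lines, at 5.60 (control), 3.15 (sh#2) and 2.68 FPKM (sh#7), or 56.3% (44.2 to 71.6) and 47.9% (36.7 to 61.5) of the control. Its FPKM in sh#7 was thus less than 50% of the control, while its log2(FPKM + 1) difference was -0.84. Import and outer membrane genes had -0.13 and 0.06 over 27 genes.

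The members counted neither as subunits nor as assembly factors were few. COX4NB, an endoplasmic reticulum gene named after its neighbour COX4I1, was at 13.4, 17.1 and 15.6 FPKM, ATP5S at 3.72, 4.27 and 4.51 FPKM, and ATP5SL at 29.8, 31.4 and 33.3 FPKM. All 3 were above the control in both lines and short of 2-fold. Only for COX4NB did the counting interval lie above the control in both lines. For ATP5S and ATP5SL it held the control level in both. ATP5S and ATP5SL (now DMAC2) were classed as coupling factor B or assembly related, so a part in assembly is not excluded. The copies ATP5EP2, ATP5L2 and ATP5J2-PTCD1 and the 7 restricted isoforms of complex IV made up the 10 members under the minimum. ATP5EP2 was the highest of the 3 copies, at 0.263, 0.519 and 0.532 FPKM.

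Set beside other large families of housekeeping genes, the members were intermediate. In sh#7 the relative median was -0.18 for members, -0.08 for 77 mitochondrial ribosomal protein genes, -0.34 for 80 cytosolic ribosomal protein genes and -0.01 for 38 proteasome genes. In sh#2 it was 0.02, 0.12, -0.18 and 0.12 in the same order. Between the lines it was -0.16, -0.20, -0.22 and -0.13, so these 4 families were alike in being lower in sh#7 than in sh#2. No test of the differences between families was possible with 1 library a group.

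**Figure D5:**
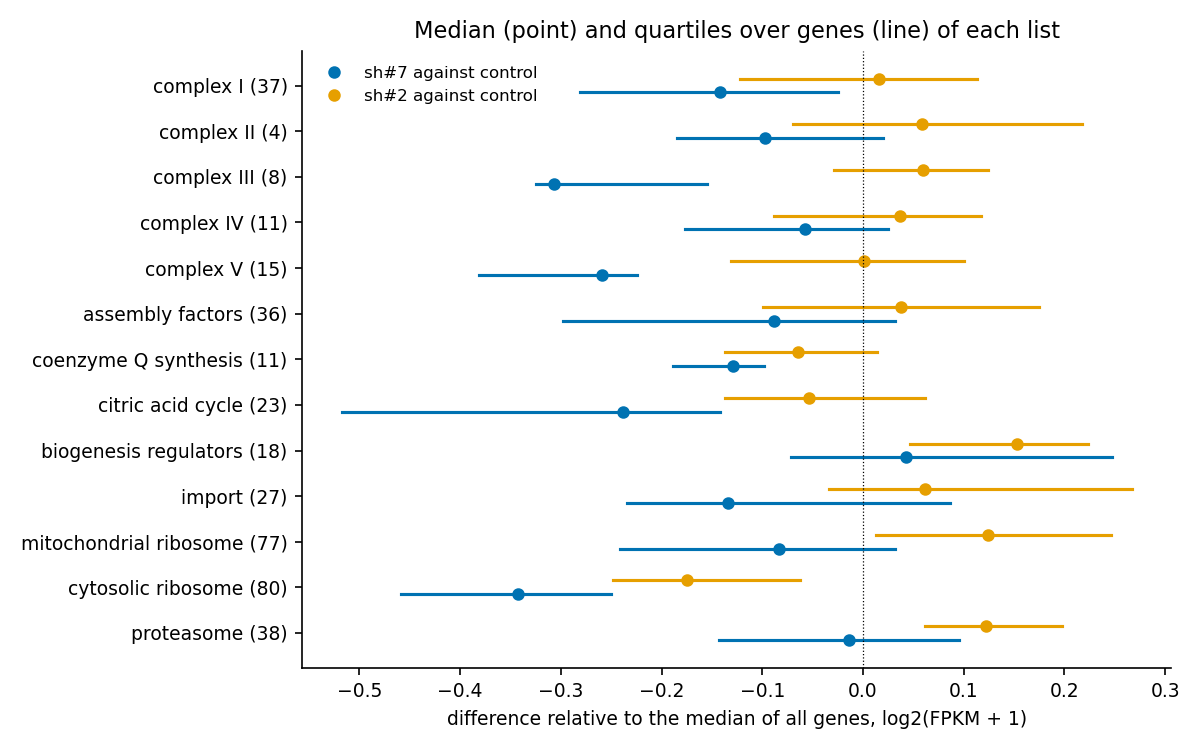
Median (point) and quartiles over genes (line) of the log2(FPKM + 1) difference less the all-gene median, for the 5 complexes and 8 other lists, with the number of compared genes in brackets; blue is sh#7 and orange is sh#2, both against the control. Every complex lies left of 0 in sh#7, and complexes III and V lie furthest left of the 5, at -0.31 and -0.26; with no minimum level complexes II and IV lie at 0.0097 and 0.0089.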

How the data were processed

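The values deposited by the authors for the 3 libraries were taken as FPKM, from their range and the named tool Cufflinks, since the table names no unit. The submitters' processing notes name Cufflinks 2.2.1, STAR 2.4.0j and HTSeq, and the build hg19; which tool made the values and the annotation are not given in the sources used here. Count models were not applied, since these are not counts.

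A difference is log2(FPKM + 1) between libraries, which understates the change of low genes, over genes averaging 1 FPKM or more. Depth was estimated from FPKM steps of single fragments in genes with 1 transcript in GENCODE 29, with a length taken off each transcript that was fitted at 210 nt in the control and 200 nt in both lines; intervals used 200 nt. Intervals are exact (Clopper-Pearson, 95%) on fragments estimated from the shortest coding transcript, are approximate, and cover counting error only. The calls and the interval coverage were tested on simulated fragments. These were drawn with the same estimated depths and lengths, so the test does not cover those estimates. The software was Python 3.11.15, pandas 2.3.3, numpy 2.4.6, scipy 1.17.1 and matplotlib 3.10.9. Older symbols were matched through RefSeq synonyms, which gave promoters for 76 of 95 members.

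The members and lists were chosen with earlier results of these data known. Named members were those past 2-fold; the 2 highest and 2 lowest subunits of each complex by the mean of both lines; isoform pairs, core subunits and the extreme assembly factors; other genes are named as landmarks of their list, chosen after their values were seen. A core gene that this rule holds is not reported here by name. Alternatives were another pseudocount, minimum, scaling, threshold and member set, and a correction for length and GC content.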

Additional observations from a re-analysis of the deposited data

Results flagged for a closer look

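In 30 of 85 members (35.3%) sh#2 and sh#7 lay on opposite sides of the control, against 25.9% of all genes. Under median-of-ratios scaling it was 34 members (40%) against 28.6%, and under upper-quartile scaling 32 (37.6%) against 28.3%. In 5 of the 30 (5.88% of the 85), both differences were beyond counting error and at least 1.1-fold, against 3.16% of all genes. The difference between the lines was not tested, since each has 1 library. On the log2 scale ATP5L was at -1.04 in sh#7 and 0.20 in sh#2, and NDUFC1 at -0.52 and 0.34. These are named after their values were seen where the naming rule does not hold them. ATP5C1, the central shaft of the ATP synthase, was at -0.15 and 0.27. In complex III, UQCRFS1 was at -0.16 and 0.22, and UQCR10 at -0.15 and 0.15.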

How the results depend on the processing

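No paired analysis was possible because a group is a single library, and for that reason no replicate could be left out. The number of members 2-fold lower in sh#7 than control went from 1 to 0 with length and GC content corrected, and to 0 with members of at least 500 fragments in every library, an alternative chosen after seeing the data, since ATP5L falls out; that also took the count lower in sh#7 than sh#2 from 1 to 0. At 1.5-fold the latter was 2. Taking no minimum adds low genes to both the members and the all-gene median, whose parts were not separated. With it the relative median of members in sh#7 went from -0.18 to -0.0615. In sh#2 it was 0.02 and became 0.004 with a pseudocount of 0.1, 0.0847 with no minimum, 0.0024 when scaled by median of ratios and 0.0043 by upper quartile, all close to 0. The other 69 summary values stayed within 1.5 times, and FTO kept its sign throughout. Of 90 complex medians 63 stayed within 1.5 times. Those of complexes II and IV in sh#7 changed sign with no minimum, to 0.0097 and 0.0089, and that of complex IV in sh#2 with length and GC content corrected, to -0.0152. Between the lines complex IV turned to 0.0077 and 0.0272 under the same settings. Complex V in sh#2, at 0.00067, turned to between -0.0138 and -0.0029 under 4 settings. Complex II held the same 4 genes with no minimum, so its change of sign in sh#7 came from the all-gene median. Of 666 values of named genes 119 moved beyond their counting interval, 57 when scaled by median of ratios and 40 by upper quartile. Of the few differences past 2-fold, 0 reversed direction. Reversal was checked for those alone, so this does not cover sign changes of the other named genes. Depth limits the members with few fragments, such as SDHC.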
